A study of Mus musculus with 3 samples.

Results

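The mitochondrial genome encodes 37 genes whose symbols start with mt-. They were chosen by that prefix alone and comprise 13 mRNAs, 2 rRNAs and 22 tRNAs, out of 55536 annotated genes in the deposited gene tables. They were measured by total RNA sequencing, after depletion of ribosomal RNA, in 3 libraries of 1 group: the cytosolic fraction of C57BL/6J mouse bone-marrow-derived macrophages. The cells had received 100 ng/ml Lipid A, a Toll-like receptor 4 ligand, for 12 h, were washed out for 12 h and received 100 ng/ml Lipid A again for 40 min. Replicates 1, 2 and 3 are labelled as biological replicates, share 1 donor label, and have no untreated or unfractionated counterpart here, so levels are described and no p-value was computed. Whether the fraction retained mitochondria is not stated in the sources used here.

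The mouse mitochondrial genome is a small circle transcribed from both strands into long precursors. The tRNAs punctuate these precursors, and their excision releases the mRNAs and rRNAs. The 13 mRNAs encode subunits of the respiratory chain complexes I, III and IV and of ATP synthase (complex V), which otherwise consist of nuclear-encoded proteins, while the rRNAs and tRNAs serve mitochondrial translation. Pieces of the mitochondrial genome have also been copied into nuclear chromosomes, where they are annotated as pseudogenes. In macrophages, mitochondrial respiration and metabolism are known to shift after Toll-like receptor stimulation.

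All 37 genes lie on chromosome M of the mm10 build, as single-exon genes in GENCODE M21. A BLAST search of their transcripts against all GENCODE M21 transcripts found 7 pseudogenes that matched an mt- gene at 99% identity or more over at least 90% of their own length. These copies form a block of 4663 bases on the minus strand of chromosome 1 (chr1:24611535-24616197), in the order of the mitochondrial genes from mt-Co1 to mt-Nd4. Between the copies of mt-Co2 and mt-Atp6 lay 233 bases, against 230 bases between the mt- genes themselves, which is where mt-Atp8 starts. The annotation has no pseudogene there. Within the aligned stretches, reads can be told apart only at the few bases that differ. Those bases and an annotated end are shown here, from the GENCODE M21 transcripts. In the first pair of sequences the capital marks substitution A1066T, with positions counted from 1 at the 5′ end of mt-Co1, the mitochondrial base first and the base of the copy last. The first 9 bases of the copy lie before the aligned part. The 33 bases of mt-Co1 are chrM:6381-6413 on the plus strand, and those of its copy Gm29216 are chr1:24616165-24616197 on the minus strand.
mt-Co1: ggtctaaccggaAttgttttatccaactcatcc
Gm29216: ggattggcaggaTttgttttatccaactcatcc
In the second pair the capital marks T3C, counted from the 5′ end of mt-Nd3 (chrM:9459-9481, plus strand), in its copy Gm28438 (chr1:24613097-24613119, minus strand).
mt-Nd3: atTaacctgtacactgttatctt
Gm28438: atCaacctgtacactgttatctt
The third pair shows the 3′ ends of mt-Co2 (chrM:7664-7696, plus strand) and of its copy Gm28661 (chr1:24614885-24614914, minus strand), with capitals on the 3 last bases of mt-Co2 that the annotated copy lacks. This is where the annotation of the copy ends, and the bases of chromosome 1 beyond it were not compared. Between the aligned parts of mt-Co2 and mt-Atp6 also lay 233 bases.
mt-Co2: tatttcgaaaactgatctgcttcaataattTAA
Gm28661: tatttcgaaaactgatctgcttcaataatt
The remaining 681 bases of mt-Co2 were identical to Gm28661. The same held for 678 bases of mt-Atp6 and Gm10925, 783 bases of mt-Co3 and Gm28437, 294 bases of mt-Nd4l and Gm10222, and the first 876 of 1378 bases of mt-Nd4 and Gm28439.

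Depth was 38197192, 46327891 and 38685666 expected counts on annotated genes in replicates 1, 2 and 3. The libraries matched their cell label: 10 of 10 macrophage markers were detected, with a summed level of 7801 to 9515 TPM, and 2 of 6 neutrophil markers (S100a8 and S100a9) but none of 16 B cell, T and NK cell, erythroid and stromal markers were. Among detected nuclear protein-coding genes, 0.329%, 0.505% and 0.461% stood more than 1 log2 unit from the mean of the other 2 libraries in replicates 1, 2 and 3. The nuclear noncoding RNA Malat1 had 1445, 485 and 1726 TPM in these libraries and Neat1, a nuclear paraspeckle RNA, had 87.7, 16.1 and 88.3 TPM.

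Of the 37 members, 14 were detected, meaning a TPM (an abundance corrected for transcript length and library depth) of 1 or more in every library, against 17.4% of all annotated genes. These were 12 of 13 mRNAs and 2 of 2 rRNAs. The exception among the mRNAs was mt-Co2, whose TPM was 0.00 in replicate 2. The 13 mRNAs held 0.467%, 0.255% and 0.643% of expected counts in replicates 1, 2 and 3 (mean 0.455% ± 0.194, SD, n = 3). The share was highest in replicate 3 and lowest in replicate 2, and the 95% Wilson interval of the lowest share, 0.254% to 0.257%, covers counting error only. The 7 nuclear copies held another 0.177%, 0.0932% and 0.232%, so that 27.5%, 26.8% and 26.5% of the pooled counts of mRNAs and copies stood on the copies. In the read-based table these parts were 17.1%, 19.2% and 16.9%. The median level of the 13 mRNAs was 235, 117 and 284 TPM, against a median of 9.52, 8 and 8.29 TPM over 9106 detected nuclear protein-coding genes. The difference was 4.53 ± 0.62 on the log2 scale (SD, n = 3), in the same direction in each library.

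The division of reads between an mt- gene and its copy decided the deposited value of 5 mRNAs: mt-Co2, mt-Co3, mt-Atp6, mt-Nd3 and mt-Nd4l. In the deposited gene table each expected count comes with a posterior mean and SD, which describe how firmly reads could be assigned. For these 5 genes the posterior SD was 11.4% to 48.3% of the posterior mean, while for the other 8 mRNAs, called firmly assigned here, it was at most 0.171%, a division drawn after the values were seen. The 8 include mt-Co1 and mt-Nd4, which have partial copies. They also include mt-Atp8, at whose place in the chromosome 1 block no pseudogene is annotated. The posterior SD covers annotated sequences only, so it does not show that the mt-Atp8 reads are mitochondrial.

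mt-Co2, the copper-binding subunit of cytochrome c oxidase that accepts electrons from cytochrome c, had 199.6, 0.01 and 213 expected counts, while Gm28661 had 24926, 16131 and 32171. In the read-based table, made from reads without an alignment file, mt-Co2 had 1726, 1682 and 1891 estimated counts and Gm28661 had 24838, 15294 and 31953. Expected and read-based counts thus both stood over 90% on the copy in every library, although the shared 681 bases are identical. By the gene table's posterior means the copy's part was 90.2%, 86.8% and 88.6%. The deposited TPM of mt-Co2, at 7.76, 0.00 and 7.02, lay below the lower bound of its own deposited interval, which was 24.6, 18.1 and 54.1 TPM. The same held for mt-Co3, with 41.08, 58.17 and 154.21 TPM against lower bounds of 157.1, 97.2 and 223.6 TPM. It also held for mt-Atp6 in replicate 3, with 26.85 against 44.3 TPM. Point estimates and bounds also parted for firmly assigned genes, but by less: mt-Co1 had 1356 TPM in replicate 1, above an upper bound of 1334 TPM.

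mt-Atp6, the subunit of ATP synthase that forms part of its proton channel, was divided in opposite ways by the 2 tables. In the gene table it had 3906, 1923 and 809 expected counts, while its copy Gm10925 had 12717, 9053 and 20829. In the read-based table mt-Atp6 had 16859, 11487 and 22636 estimated counts, while Gm10925 had 1066, 290.3 and 396. The copy's part of the pair was thus 85.1% ± 10.1 in one table and 3.38% ± 2.26 in the other (SD, n = 3).

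mt-Co3, a core subunit of cytochrome c oxidase, had 1282, 2644 and 5700 expected counts, while Gm28437 had 20474, 12091 and 24679. Its read-based counts were 9957, 4438 and 13613, with 12994, 11029 and 18240 on Gm28437. For mt-Nd3, a subunit of complex I, the gene table gave 765, 496 and 374 expected counts, while Gm28438 had 676, 676 and 1373. In that table the order of the libraries differed between gene and copy, with mt-Nd3 highest in replicate 1 and Gm28438 highest in replicate 3. The read-based table gave 1195, 457 and 1178 estimated counts to mt-Nd3 and 317, 776 and 658 to Gm28438, which was highest in replicate 2 there. mt-Nd4l, another complex I subunit, had 967, 1008 and 1327 expected counts beside 968, 440 and 1529 on Gm10222. The read-based table gave mt-Nd4l all 2491, 1889 and 3592 of the pair's counts.

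mt-Co1, the catalytic subunit of cytochrome c oxidase, was little affected. It had 99086, 59839 and 130744 expected counts, while Gm29216, which copies its last 483 bases, had 7835, 4779 and 9126. For mt-Nd4 the copy Gm28439, named here because it is the only one under 10 counts in every library, had 7.04, 0 and 0 expected counts against 15045, 10759 and 21709 on the gene. Of 21 pseudogenes that matched less well, 3 had any count, and the highest was 25.1.

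**Figure D1:**
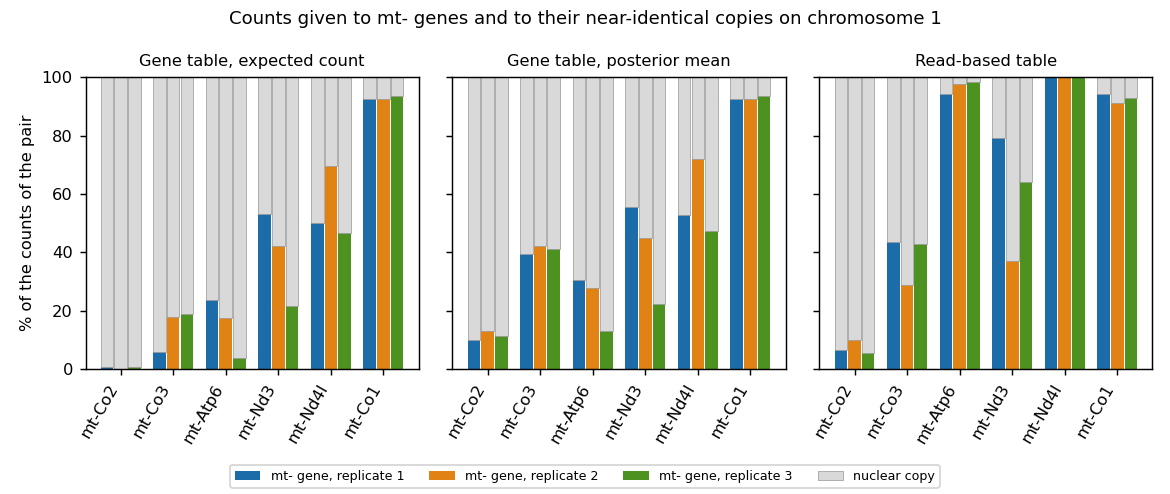
Share of the counts of each pair (vertical axis, %) given to the mt- gene (coloured, 1 bar per replicate) and to its nuclear copy (grey), in the gene table's expected counts, its posterior means and the read-based table. The pair of mt-Nd4 and Gm28439 is not drawn. The grey part of mt-Atp6 averages 85.1% in the first panel and 3.38% in the third. That of mt-Co2 averages 99.5%, 88.5% and 92.7% from the first panel to the third.

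Because the deposited value of a copied gene depends on this division, levels were also computed from the summed counts of gene and copy, divided by the effective length of the mt- gene. The sum counts every read on a copy for the mt- gene. Whether the copies give RNA of their own was not tested, so these levels are those of gene and copy together. On that scale the 4 genes of the stretch from mt-Co1 to mt-Co3 with copies, mt-Co1, mt-Co2, mt-Co3 and mt-Atp6, stood above the complex I genes. mt-Co1 had 1463, 606 and 1599 TPM with its copy, mt-Co2 had 977, 431 and 1068 TPM, mt-Co3 had 697, 324 and 822 TPM, and mt-Atp6 had 650.5, 295 and 718 TPM. Each was higher than the next in 3 of 3 libraries, by 0.55 ± 0.05, 0.43 ± 0.06 and 0.14 ± 0.05 on the log2 scale (SD, n = 3), which was more than the spread between libraries each time. The ratio of mt-Co3 to mt-Atp6 from the deposited TPM was 0.27 ± 2.21 on the same scale, so the sum with the copies reduced its spread. With the copies added the read-based table gave 0.67 ± 0.09, 0.42 ± 0.05 and 0.12 ± 0.05 for these 3 steps.

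mt-Atp8, the short ATP synthase subunit whose reading frame overlaps that of mt-Atp6, ranked first by TPM. It had 1423, 727 and 1705 TPM and exceeded mt-Co1 with its copy in 2 of 3 libraries, by 0.11 ± 0.15 on the log2 scale, which was within the spread. This rank rested on length. The gene has 204 bases, and its deposited effective length was 23.4, 23.8 and 20.4 bases. In the read-based table the effective length was 64.3, 48.5 and 50.8 bases and mt-Atp8 had 198, 160 and 259 TPM. Per kilobase of full length it ranked 10 of 13 with copies added to the other genes, and 7 of 13 without, with 235.5, 147 and 293 CPM (counts scaled to the library total) per kilobase.

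The overlap is shown because reads within it belong to both genes. Capitals mark the 43 shared bases at the end of mt-Atp8 (chrM:7907-7969) and the start of mt-Atp6 (chrM:7927-7989), both on the plus strand.
mt-Atp8: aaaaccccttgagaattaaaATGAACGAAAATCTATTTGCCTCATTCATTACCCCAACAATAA
mt-Atp6: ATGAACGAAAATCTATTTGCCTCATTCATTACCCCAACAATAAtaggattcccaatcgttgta
The 2 genes share 1 transcript in mammals, as do mt-Nd4l and mt-Nd4, which overlap by 7 bases (capitals; chrM:10134-10173 and chrM:10167-10206, plus strand).
mt-Nd4l: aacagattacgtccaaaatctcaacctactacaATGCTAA
mt-Nd4: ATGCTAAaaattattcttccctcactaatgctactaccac
With copies added, mt-Atp8 was 1.23 ± 0.09 above mt-Atp6 in log2 TPM, but its log2 ratio to mt-Atp6 was -1.39 ± 0.13 per kilobase of full length. In the read-based TPM with copies the difference was 0.06 ± 0.20, within the spread. mt-Nd4l was 0.81 ± 0.07 above mt-Nd4 in log2 TPM with copies, and its log2 ratio per kilobase of full length was -0.71 ± 0.03. The direction of both ratios therefore changed with the length used.

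Complex I passes electrons from NADH to ubiquinone. mt-Nd1 had 251, 128 and 344 TPM, mt-Nd5 had 247, 117 and 306 TPM, and mt-Nd4 had 235, 115 and 284 TPM. mt-Cytb, the only mitochondrial gene of complex III, had 266, 136 and 330 TPM. mt-Cytb and mt-Nd1 differed by 0.04 ± 0.09 in log2 TPM, within the spread, whereas mt-Nd1 exceeded mt-Nd5 in 3 of 3 libraries by 0.11 ± 0.08. Per kilobase of full length mt-Nd5 was instead above mt-Nd1 in 3 of 3 libraries by 0.09 ± 0.07, and the read-based TPM put mt-Nd1 above in 2 of 3 by 0.08 ± 0.09, within the spread. mt-Nd2, at 115, 58.1 and 154 TPM, was the lowest mRNA by TPM with copies added, and its log2 level over mt-Cytb was -1.17 ± 0.07. Per kilobase of full length with copies, mt-Nd3 was the lowest, and mt-Nd2 was above it in 3 of 3 libraries by 0.36 ± 0.28 on the log2 scale. With copies added, mt-Nd4l had 394, 201 and 522 TPM and mt-Nd3 had 194, 108 and 207 TPM. Of the 12 neighbouring pairs in the order with copies added, 9 differed by more than their spread and in the same direction in every library. The 3 that did not were mt-Atp8 with mt-Co1, mt-Nd6 with mt-Cytb, and mt-Cytb with mt-Nd1. The order was sorted by the means of these same libraries, which favours a common direction. The count of 9 therefore does not measure how firmly the order is resolved. In the order per kilobase of full length with copies, which differs, 8 of 12 pairs met the same rule.

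mt-Nd6, a complex I subunit and the only mRNA on the other strand (chrM:13552-14070, minus), had 267, 146 and 423 TPM. It was higher than mt-Nd5, which overlaps it by 14 bases at the 3′ end, by 0.30 ± 0.18 in log2 TPM, but its log2 ratio to mt-Nd5 was -0.31 ± 0.16 per kilobase of full length. Whether counting used strand is not given in the sources used here, so reads of mt-Nd6 and of opposite-strand RNA from the same bases cannot be told apart.

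**Figure D2:**
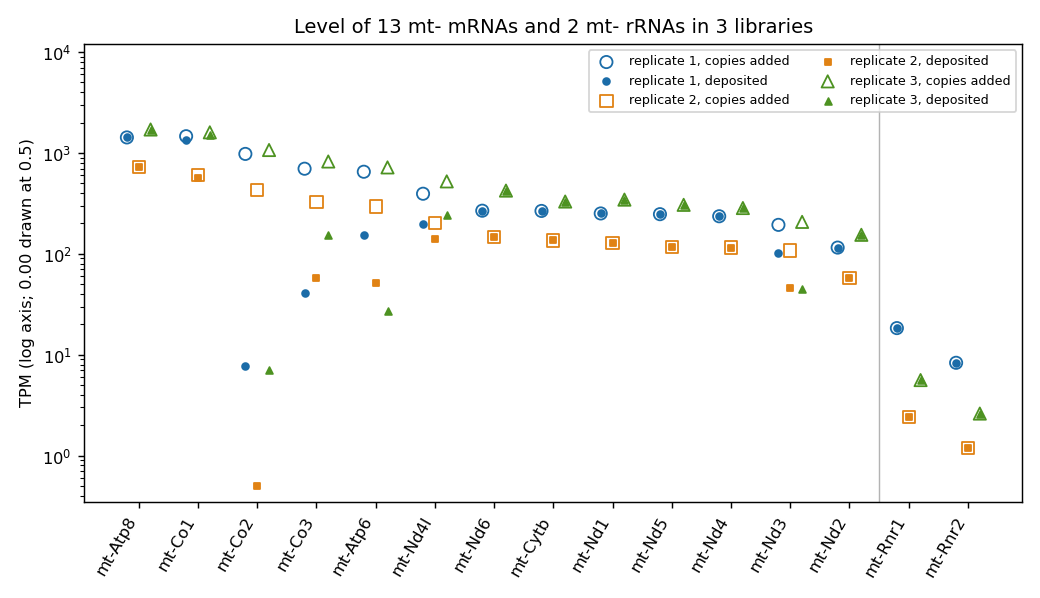
TPM (log axis) of the 13 mt- mRNAs and 2 mt- rRNAs in each library, as deposited (filled) and with the counts of the nuclear copies added (open). Both symbols coincide except for the copied genes: mt-Co2 has 977, 431 and 1068 TPM with its copy, against 7.76, 0.00 and 7.02 TPM as deposited.

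The mt- rRNAs form the RNA core of the mitochondrial ribosome, and ribosomal RNA had been depleted in these libraries. mt-Rnr1, of the small subunit (chrM:70-1024), had 746, 143 and 271 expected counts and 18.4, 2.42 and 5.61 TPM. mt-Rnr2, of the large subunit (chrM:1094-2675), had 625, 131 and 235 expected counts and 8.32, 1.20 and 2.61 TPM. Together they held 0.00359%, 0.000591% and 0.00131% of expected counts, or 0.557%, 0.170% and 0.149% as many counts as the mRNAs with their copies. In log2 TPM mt-Rnr2 over mt-Rnr1 was -1.09 ± 0.07, lower in 3 of 3 libraries. The read-based table turned this round: it held 2208, 477 and 1099 estimated counts for mt-Rnr2 and 1184, 222 and 538 for mt-Rnr1, a log2 TPM ratio of 0.13 ± 0.08. The read-based count of mt-Rnr2 was 3.95 ± 0.63 times the expected count, and that of mt-Rnr1 1.71 ± 0.24 times, while the median over the 8 mRNAs with firmly assigned reads was 1.08 and that over detected nuclear protein-coding genes 1.10.

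The 22 tRNAs had an effective length of 0 in every gene table and are listed there at 0, so these zeros are no measurement of the tRNAs. They are 59 to 75 bases long, against a size range of 250 to 400 bases given in the labels. The read-based table gave them 313, 163 and 247 estimated counts in all, or 0.000488% ± 0.000186 of its counts (SD, n = 3). Of these counts 91.7%, 93.3% and 91.9% stood on the 8 tRNA genes of the minus strand, and only the rest on the 14 of the plus strand. mt-Tp, the proline tRNA, had 127, 73 and 135 counts. It was followed by mt-Ts1, a serine tRNA, with 74, 26 and 37, mt-Tc, the cysteine tRNA, with 30, 11 and 19, and mt-Te, the glutamate tRNA, with 15, 22 and 8. Of the 8 highest tRNA genes 7 were on the minus strand. The exception was the methionine tRNA mt-Tm, with 9, 4 and 6 counts. The genes listed at 0 in every library, mt-Td, mt-Tr, mt-Tl2 and mt-Tt, were all on the plus strand, and 0 counts allow up to 0.0640, 0.0546 and 0.0608 CPM of the read-based counts. The sequences of the 4 highest tRNA genes are shown with that of mt-Tt, which borders mt-Tp on the opposite strand. Capitals mark the anticodon, found as the middle of a loop of 7 bases closed by a stem. They are chrM:15356-15422 (minus), chrM:6870-6938 (minus), chrM:5192-5257 (minus), chrM:14071-14139 (minus) and chrM:15289-15355 (plus).
mt-Tp: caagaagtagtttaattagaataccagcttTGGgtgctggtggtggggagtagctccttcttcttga
mt-Ts1: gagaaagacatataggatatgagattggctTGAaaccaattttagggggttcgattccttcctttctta
mt-Tc: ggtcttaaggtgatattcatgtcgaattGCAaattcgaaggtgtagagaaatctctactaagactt
mt-Te: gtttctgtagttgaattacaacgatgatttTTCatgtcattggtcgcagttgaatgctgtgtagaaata
mt-Tt: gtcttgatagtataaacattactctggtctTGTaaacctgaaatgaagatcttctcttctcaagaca
As for mt-Nd6, the strand of the reads is not known, and a read assigned to a tRNA gene need not come from a mature tRNA.

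**Figure D3:**
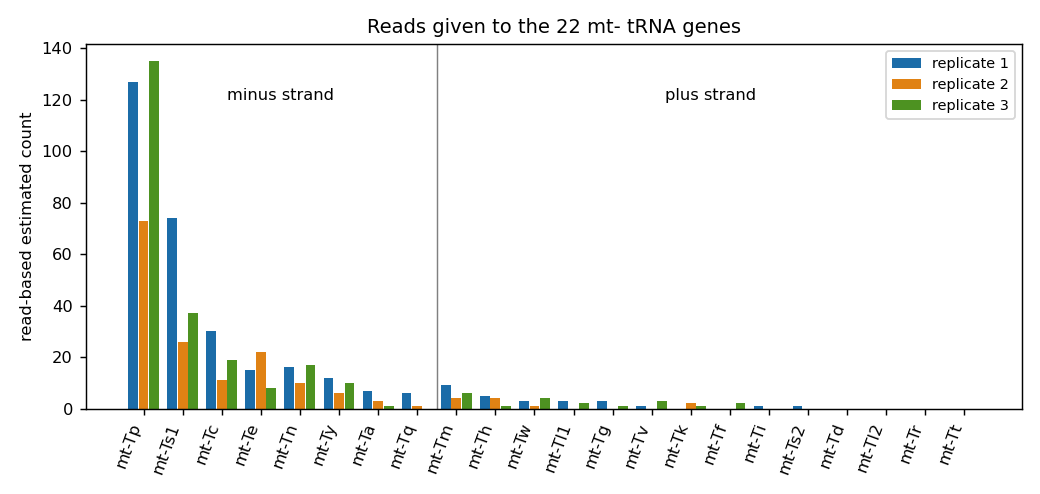
Estimated count of each of the 22 mt- tRNA genes in the read-based table (vertical axis), 1 bar per replicate, ordered by strand and mean count. The bars of mt-Tp reach 127, 73 and 135, and 4 plus-strand genes have no bar.

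The libraries differed more in mt- RNAs than in most nuclear genes. On the log2(TPM + 1) scale the SD over libraries had a median of 0.72 for the 12 detected mRNAs, against 0.16 for detected nuclear protein-coding genes. The highest library was at least 2 times the lowest for 12 of 13 mRNAs with copies added and for 2 of 2 rRNAs, against 2.84% of detected nuclear protein-coding genes. Without replicate 2 the median SD of the mRNAs was 0.26, so the spread rested largely on that library. In bulk RNA, fewer cells with a transcript and less of it per cell cannot be told apart, nor can the amount of mitochondria carried into each fraction.

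The mRNAs moved together. With copies added, 13 of 13 were lowest in replicate 2, against 51.9% of detected nuclear protein-coding genes, and 13 of 13 were highest in replicate 3, against 12.7%. By the deposited TPM 10 of 13 were lowest in replicate 2, 10 were highest in replicate 3 and 3 were highest in replicate 1. Relative to the mean of the other 2 libraries and to the median nuclear gene, their median log2 deviation was 0.14 in replicate 1, -1.07 in replicate 2 and 0.88 in replicate 3. Centring on the median mRNA of each library left a median SD of 0.20 for the 13 mRNAs with copies added, 0.12 for the 12 detected mRNAs as deposited and 0.05 for the 8 with firmly assigned reads, a subset chosen after the values were seen. The highest SD of a gene in these sets was 0.33, 1.45 and 0.16. With copies added the median mRNA was mt-Nd6 in every library, at 267, 146 and 423 TPM, so 0.20 and 0.33 are spreads relative to mt-Nd6. The 12 were centred on the deposited median of the 13, and the 8 on their own median. Because these references differ, the SDs of the sets do not show whether adding copies changed how closely the mRNAs moved together. mt-Nd6 deviated most in replicate 3, by 1.19, and mt-Nd3 least, by 0.61.

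The rRNAs followed another order. mt-Rnr1 and mt-Rnr2 were highest in replicate 1, as were 76.3% of detected nuclear protein-coding genes, with log2 deviations of 2.09 and 2.00, and lowest in replicate 2, with -1.93 and -1.83. In replicate 3, where the mRNAs were highest, the rRNAs had deviations of -0.16 and -0.19. The nuclear RNAs Malat1 and Neat1 were also lowest in replicate 2 and highest in replicate 3. Their part in the differences between libraries was not tested. The 44 nuclear subunits of the respiratory complexes had median deviations of -0.04, 0.06 and -0.02 in replicates 1, 2 and 3.

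**Figure D4:**
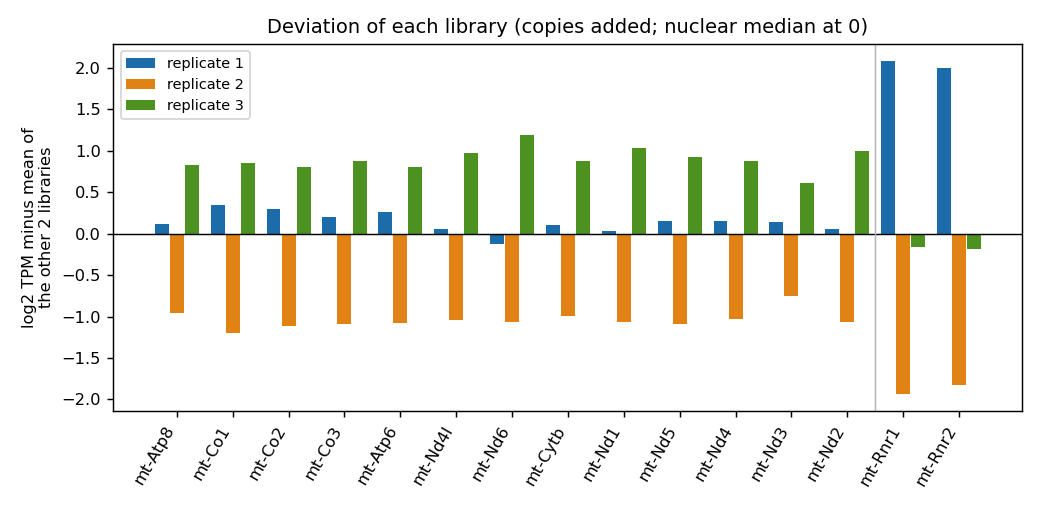
Log2 TPM of each mt- mRNA and rRNA in a library minus the mean of the other 2 libraries (vertical axis), with copies added and the median detected nuclear protein-coding gene set to 0. All 13 mRNAs are lowest in replicate 2 and highest in replicate 3, while the rRNAs reach 2.09 and 2.00 in replicate 1.

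The 4 respiratory complexes with subunits from both genomes were compared by the median TPM of their genes, with copies added. Complex I had 223 ± 96.4 TPM for 7 mt- genes and 24.0 ± 1.84 TPM for 6 nuclear core genes (SD, n = 3), a log2 difference of 3.11 ± 0.70. Complex III had 244 ± 98.9 TPM for mt-Cytb and 58.6 ± 6.48 TPM for 9 nuclear genes, a difference of 1.97 ± 0.60. Complex IV had 825 ± 344 TPM for 3 mt- genes and 115 ± 4.16 TPM for 10 nuclear genes, a difference of 2.73 ± 0.72. In complex V the 2 mt- genes had 920 ± 365 TPM and 15 nuclear genes 64.8 ± 4.47 TPM, a difference of 3.74 ± 0.67. The read-based TPM, with its longer effective length for mt-Atp8, gave 3.04 ± 0.62 in complex V and 2.96 ± 0.68 in complex I. With copies added the mt- median was higher in 3 of 3 libraries in each. With the deposited TPM alone complex IV gave -0.69 ± 1.04, higher in 1 of 3 libraries.

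**Figure D5:**
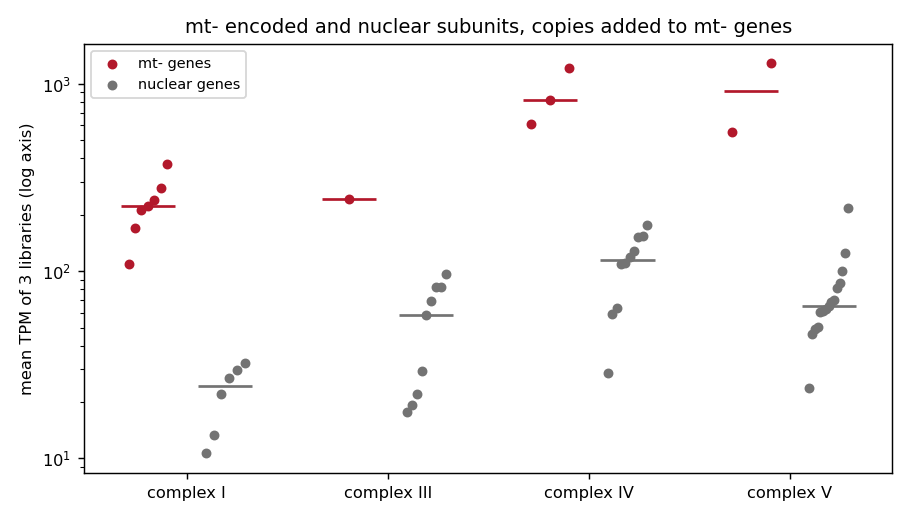
Mean TPM of 3 libraries (log axis) for the mt- encoded genes, with copies added (red), and the nuclear genes (grey) of 4 respiratory complexes; each point is a gene and each line the median. The lowest red point of each complex lies above its highest grey point.

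All 44 nuclear subunits examined, those of the wholly nuclear complex II included, were detected: 6 of 6 complex I core, 4 of 4 complex II, 9 of 9 complex III, 10 of 10 complex IV and 15 of 15 complex V genes. By mean TPM the highest of the genes reported were Ndufs3, Ndufs7, Ndufv2 and Ndufs8 in complex I (32.4, 29.6, 26.7 and 22.01), and Sdhb, Sdha, Sdhd and Sdhc in complex II (67.9, 45.2, 42.9 and 30.3). In complex III they were Uqcrh, Uqcrb, Uqcrq and Uqcr10 (96.1, 82.8, 81.9 and 69.3). Cox4i1, Cox5a, Cox8a and Cox6b1 led complex IV (176, 155, 152 and 128), and Atp5b, Atp5l, Atp5e and Atp5a1 complex V (218, 124, 101 and 86.0).

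The nuclear genes that transcribe, process and translate mt- RNA had lower levels. Of 15 genes of mtDNA transcription and replication 9 were detected, with a median of 2.31 TPM over the list. The highest were Ssbp1, the single-strand DNA-binding protein, at 8.95 ± 0.56 TPM, Mterf3 at 6.20 ± 0.87, the packaging and transcription factor Tfam at 4.95 ± 1.57 and the DNA polymerase Polg at 4.70 ± 0.75 (SD, n = 3). Below 1 TPM in every library were Mterf1b, Mterf2, the polymerase subunit Polg2, the helicase Twnk and the topoisomerase Top1mt. The list of mitochondrial RNA processing and decay was detected in 19 of 19 genes, with a median of 6.45 TPM. It was led by the mRNA-stabilising Slirp at 36.7 ± 8.39 TPM, the oligonucleotidase Rexo2 at 20.6 ± 1.19, the RNase P subunit Hsd17b10 at 13.5 ± 1.78 and the RNA-binding Grsf1 at 13.2 ± 1.19. For mitochondrial translation 13 of 13 genes were detected, with a median of 3.68 TPM. The highest were the elongation factor Tufm at 11.2 ± 0.07 TPM, the membrane insertase Oxa1l at 9.53 ± 0.40, the elongation factor Gfm1 at 8.22 ± 0.66 and the initiation factor Mtif2 at 6.65 ± 0.48.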

How the data were processed

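The deposited gene tables hold expected counts, with posterior means and SDs, TPM with interval bounds, and FPKM per gene, in the layout of RSEM per the file headers. One deposited transcript table repeats these counts, and the other, called read-based here and laid out like kallisto output per the file headers, gives estimated counts and TPM obtained without an alignment file. Accompanying texts name mm10 and GENCODE M21, without tool versions. Rows naming no gene (0.104% to 0.356% of counts) were left out. Transcripts were aligned with blastn 2.17.0+. Levels with copies are the summed counts over the effective length of the mt- gene, scaled by the factor between counts and TPM of mt-Cytb in that library. Alternatives used edgeR 4.0.16 (TMM) and DESeq2 1.42.0 (size factors) on rounded counts. The formula for deviations was tried on simulated counts only, without TPM, effective lengths or added copies, so this does not check the reported deviations themselves. The text names all mRNAs and rRNAs, the 4 highest tRNAs and those at 0 (by read-based count, since the gene table lists all at 0), copies with 10 or more counts in every library, and of each nuclear list the 4 highest and those under 1 TPM throughout. Gm28660, listed as a copy by name, had 0 counts and no such alignment. A nuclear complex I gene is not reported here. Members and lists were chosen with earlier results of these data known. The replicates may come from 1 donor, so SDs may be partly technical.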

Additional observations from a re-analysis of the deposited data

How the results depend on the processing

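No paired analysis was possible because all libraries belong to 1 group. The mt- median over the nuclear median, 4.53 in log2 TPM, stayed within 1 SD in FPKM, rescaled TPM, both transcript tables, posterior means and with copies added, and was 1.96 in CPM, with TMM and with DESeq2 size factors, which do not divide by length. Members detected numbered 22 in the read-based table, against 14. The mt- rRNA share was 0.00394% there, against 0.00183%. mt-Rnr2 over mt-Rnr1 was 0.13 in log2 read-based TPM, against -1.09. The deviation of replicate 2 for the 8 mRNAs with firmly assigned reads was -0.97 in read-based TPM, against -1.07. Relative to mt-Cytb, log2(TPM + 0.01) changed sign with copies added for mt-Co2 (1.75 against -8.12), mt-Co3 (1.32 against -1.67), mt-Atp6 (1.18 against -1.94) and mt-Nd4l (0.60 against -0.28, within its SD), in the read-based table for mt-Atp6 (1.14) and mt-Nd4l (0.51), and in posterior means for mt-Co3 (0.0309); the division of reads between gene and copy differs by construction in each. Of the 12 neighbouring pairs in the order by deposited TPM, 10 kept their direction in posterior means and 9 with copies added. The read-based table kept 8, as did counts per kilobase of full length. The alignment-based table kept all 12, because it repeats the same counts. Leaving out each replicate gave 4.25 to 4.86 for the level, 14 to 15 members detected, 0.361% to 0.555% and 0.000950% to 0.00245% for the mRNA and rRNA shares, 9 to 12 pairs for the order, -1.12 to -1.06 for the rRNA ratio and 0.26 (without replicate 2) to 0.94 (without replicate 1) for the spread. Pseudocounts, filters and normalizations kept the spread within 1 SD of 0.72. Copies for share, order and spread, posterior means, the order without each replicate and the read-based shares and rRNA ratio were chosen after seeing the data. Depth was not limiting for the mRNAs, but rRNA and tRNA values rest on few counts.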
